A study of Ascaris suum with 62 samples.

Results

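The testis-poor scaffolds are 22 long pieces of the *Ascaris suum* genome that carried little of the centromeric histone CENP-A in testis. They were picked from the 600 scaffolds that held a CENP-A peak in any of 12 peak lists. A scaffold's extent was taken as the end of its last peak over all lists, and its cover as the percent of that extent inside peaks. A scaffold entered when its extent was at least 500 kb, at most 50% of its peaks were marked eliminated by the authors, and its mean cover in embryos of 0, 46 and 60 hours was at least 4 times its mean cover in testis. Of 125 scaffolds that met the first pair of conditions, 22 met the third and 103, called the other large scaffolds here, did not. The testis-poor scaffolds spanned 47.3 Mb, which is 20.8% of the extent of the 125 and 16.7% of the 284 Mb spanned by all peaks. Since testis and the embryos timed in hours chose them, their values in those 6 lists are given as a description with no test. The ovary lists and the lists of older embryos and larvae took no part in that ratio. They entered the choice only through the extent and the share of peaks marked eliminated.

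*Ascaris suum*, the large roundworm of pigs, has holocentric chromosomes: kinetochores form along the chromosome and not at a single site. CENP-A replaces histone H3 in the nucleosomes on which kinetochores are built. In the nematode *Caenorhabditis elegans* it occupies broad regions along each chromosome and is scarce over genes that are transcribed in the germ line. In *Ascaris* it is followed because early embryonic cells discard part of the genome, and broken chromosome pieces without a kinetochore are lost. Sex in *Ascaris* depends on X chromosomes, of which there are several kinds; females carry a pair of each and males a single copy, with no Y.

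Chromatin immunoprecipitation with sequencing gave 1 CENP-A peak list for each of 12 stages, each resting on 2 libraries. Testis (testis1 to testis3) and ovary (ovary1 to ovary3) came as 3 lists each, embryos as lists at 0, 46 and 60 hours and at 5 and 7 days of incubation at 30 °C, and L1 is the first larval stage. The labels name no treatment and no genotype, and they give neither strain nor age of the adults, nor what the gonad numbers stand for. Eggs at 0 hours were taken from the end of the uterus, and embryo lists therefore pool many eggs, whose sexes the labels do not give. Below, 0hr, 46hr and 60hr are the hours lists and 5day, 7day and L1 the late lists. Reads in peaks ran from 1005578 to 14901685 per library and peaks per list from 9197 to 21837. No stage has replicate lists, so every SD and p-value is over the 3 lists of a class, which may differ in biology as well as in handling, and precision is limited by 3 lists against 3. Tissue markers cannot be read from peak lists, so the tissue labels were not checked.

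Low testis cover was shared by all 3 testis lists. Peaks covered 4.65% of the testis-poor scaffolds in testis1, 5.39% in testis2 and 1.13% in testis3, against 16.6%, 21.0% and 8.61% of the other large scaffolds in the same lists. In the ovary lists the values were 9.92%, 6.85% and 17.4% for the testis-poor scaffolds and 11.1%, 8.73% and 16.0% for the others. The testis-poor scaffolds were thus far below the others in each testis list. They were lower by a smaller margin in ovary1 and ovary2 and higher in ovary3. Of the 22, 16 lay under the others' median in ovary1, 20 in ovary2 and 7 in ovary3, against all 22 in each testis list. At 0hr, 46hr and 60hr they had 29.9%, 25.6% and 25.5%, against 21.4%, 21.3% and 22.7% for the others. At 5day, 7day and L1 they had 19.2%, 17.8% and 15.6%, against 18.7%, 17.2% and 17.7%.

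**Figure D1:**
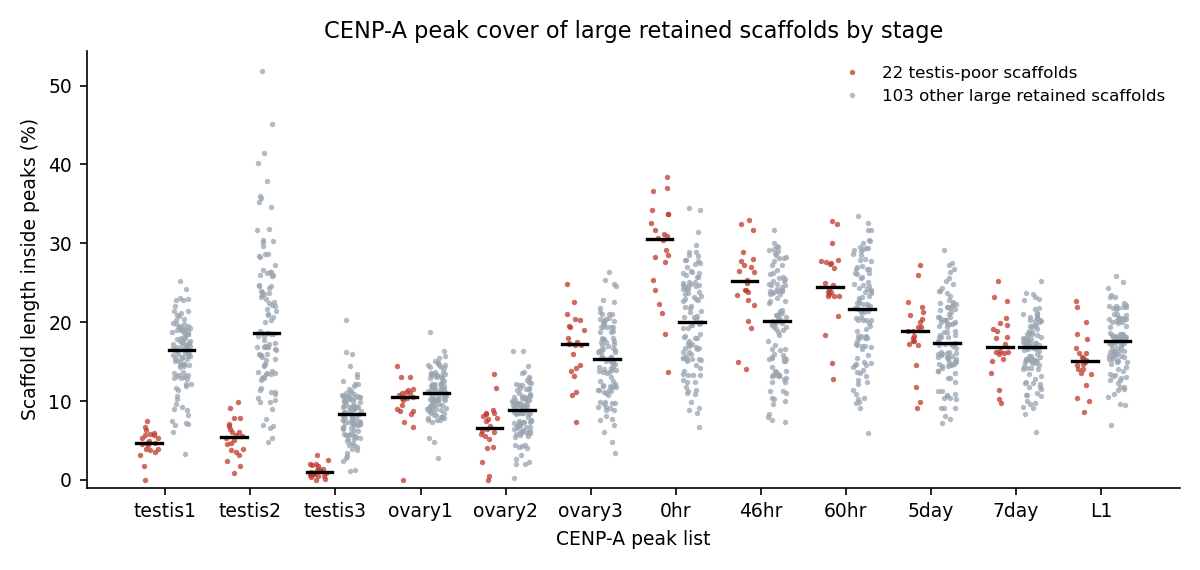
Percent of scaffold length inside CENP-A peaks (vertical axis) in each of the 12 lists (horizontal axis), with 1 point per scaffold for the 22 testis-poor scaffolds (red, left of each pair) and the 103 other large scaffolds (grey), and black bars at the medians. The red medians are 4.66%, 5.49% and 0.950% in the testis lists, against 16.5%, 18.6% and 8.34% for the grey points, while the groups overlap widely in the other 9 lists.

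Relative cover, the cover of the testis-poor scaffolds divided by that of the other large scaffolds in the same list, sets both groups against the same peak call. It was 0.280, 0.257 and 0.131 in the testis lists (mean 0.223 ± 0.080, SD, n = 3 lists) and 0.898, 0.785 and 1.09 in the ovary lists (0.924 ± 0.154, SD, n = 3 lists). The hours lists had 1.40, 1.20 and 1.12 (1.24 ± 0.142, SD, n = 3 lists) and the late lists 1.03, 1.03 and 0.883 (0.980 ± 0.084, SD, n = 3 lists). The highest testis value lay under the lowest value of any other class. Divided by the ovary mean, the testis mean was 0.241. Among only the peaks at or above each list's median read density, the testis mean was 0.127 and this quotient 0.145. Within the hours lists relative cover was highest at 0hr, and 0hr was the highest of the 12 lists in 19 of the 22 testis-poor scaffolds and in 20 of the 103 others. The hours lists helped choose the scaffolds, so their values above 1 are partly set by the rule.

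Fewer peaks made up most of the gap. The testis-poor scaffolds held 792, 987 and 317 peaks in testis1 to testis3, or 16.7, 20.9 and 6.70 peaks per Mb, against 53.5, 63.2 and 41.1 peaks per Mb on the other large scaffolds. In the ovary lists they held 41.6, 30.1 and 65.9 peaks per Mb, against 45.7, 38.4 and 66.2. The ratio of peaks per Mb averaged 0.269 ± 0.092 in testis and 0.896 ± 0.106 in ovary (SD, n = 3 lists each). Peak width differed less: the ratio of median widths averaged 0.937 ± 0.089 in testis and 1.03 ± 0.045 in ovary (SD, n = 3 lists each). In testis the scaffolds thus had fewer peaks of nearly the usual width.

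By the median, the peaks that remained in testis were also thinner in reads. Median reads per kb of peak, relative to the other large scaffolds, were 0.849, 0.815 and 0.771 in the testis lists and 0.990, 0.948 and 0.970 in the ovary lists. The hours lists had 0.916, 0.936 and 0.881, and the late lists 0.868, 0.899 and 0.886. Testis was lowest in this measure too, but by a much smaller margin than in cover. Testis and hours lists chose the scaffolds, so their densities are a description and not independent of the cover. The libraries of testis3 went apart: the summed reads per kb, relative to the others, were 1.12 in its first deposited column and 0.768 in its second. In the other 11 lists the columns differed by no more than 0.0895 in this ratio. Of all reads in peaks, the testis-poor scaffolds took between 2.16% and 4.50% in the 6 testis libraries and between 13.7% and 17.9% in the 6 ovary libraries.

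**Figure D2:**
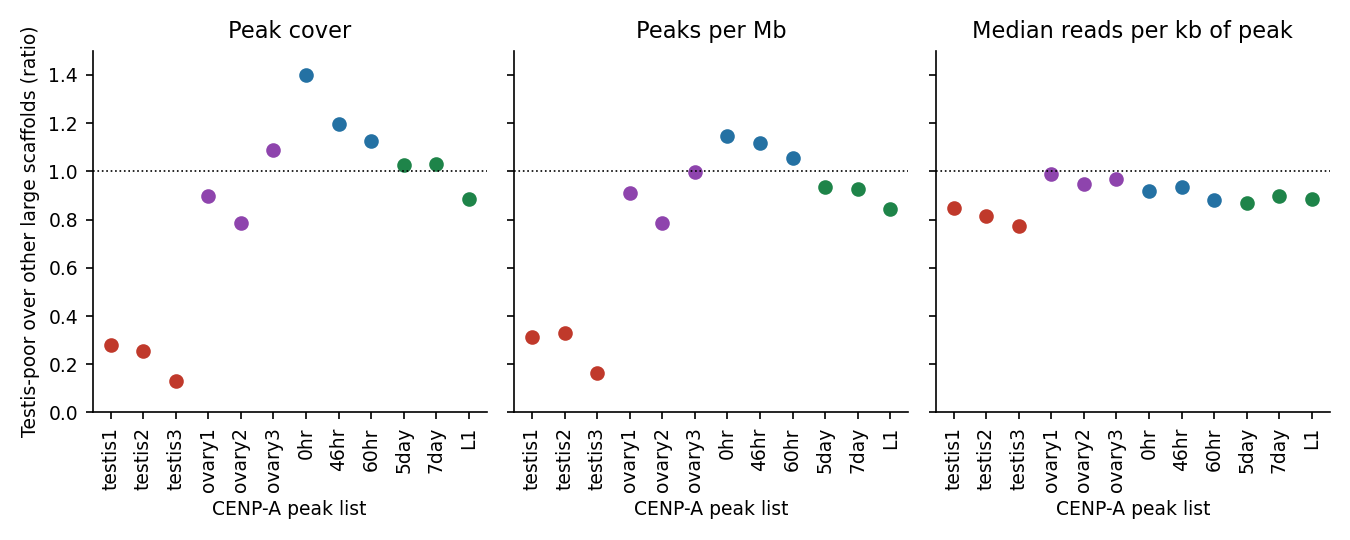
Value on the testis-poor scaffolds divided by that on the other large scaffolds (vertical axes, ratio; dotted line at 1) for peak cover, peaks per Mb and median reads per kb of peak, by list; colours mark testis (red), ovary (purple), hours (blue) and late lists (green). Testis stands at 0.131 to 0.280 in cover and at 0.771 to 0.849 in read density.

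By the ratio that chose them, the testis-poor scaffolds lay between 4.26 and 46.4 (median 7.04), and the others between 0.361 and 3.51 (median 1.39). Of the 103 others, 93 had a ratio under 2. Just inside the threshold lay scaffolds 0072 at 4.26, 0068 at 4.35 and 0118 at 4.39. Just outside lay 0059 at 3.51, 0111 at 3.16 and 0120 at 2.92. Scaffold 0059 had 5.84% cover in testis, 7.37% in ovary, 20.5% in the hours lists and 19.1% in the late lists, so its ovary cover was low as well. No large scaffold fell between 3.51 and 4.26.

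Scaffold 0001, the longest of them at 7786 kb, showed the common pattern. Its cover was 4.95%, 6.09% and 1.13% in the testis lists and 10.2%, 7.68% and 18.0% in the ovary lists. The hours lists had 31.2%, 26.4% and 27.5%, and the late lists 20.9%, 19.6% and 16.7%. Every testis list lay below every other list on this scaffold. Scaffolds 0002 (6895 kb), 0006 (4427 kb), 0012 (3749 kb), 0026 (2584 kb), 0030 (2311 kb), 0038 (2055 kb), 0041 (1889 kb) and 0047 (1761 kb) followed it closely. Their mean testis cover was between 2.81% on 0026 and 4.39% on 0012, and their mean ovary cover between 10.4% on 0038 and 12.8% on 0030.

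A few of the shorter scaffolds departed from this pattern. Scaffold 0116 (620 kb) had the highest ratio, 46.4, and 2 of the 3 ovary lists were nearly empty there, as was testis. It held 0%, 0.92% and 0% in the testis lists and 0%, 0.53% and 7.41% in the ovary lists, against 13.6%, 14.0% and 14.8% in the hours lists and 14.6%, 13.5% and 12.0% in the late lists. Scaffold 0105 (750 kb) had the second highest ratio, 15.4, with 1.81%, 2.44% and 0.54% in the testis lists and 6.73%, 0% and 13.8% in the ovary lists. On these scaffolds testis and ovary overlapped. Scaffold 0060 (1555 kb) overlapped too, with 3.12%, 1.77% and 0.47% in the testis lists and 10.8%, 2.29% and 11.2% in the ovary lists, and its highest cover of the 12 lists was 27.3% at 60hr.

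**Figure D3:**
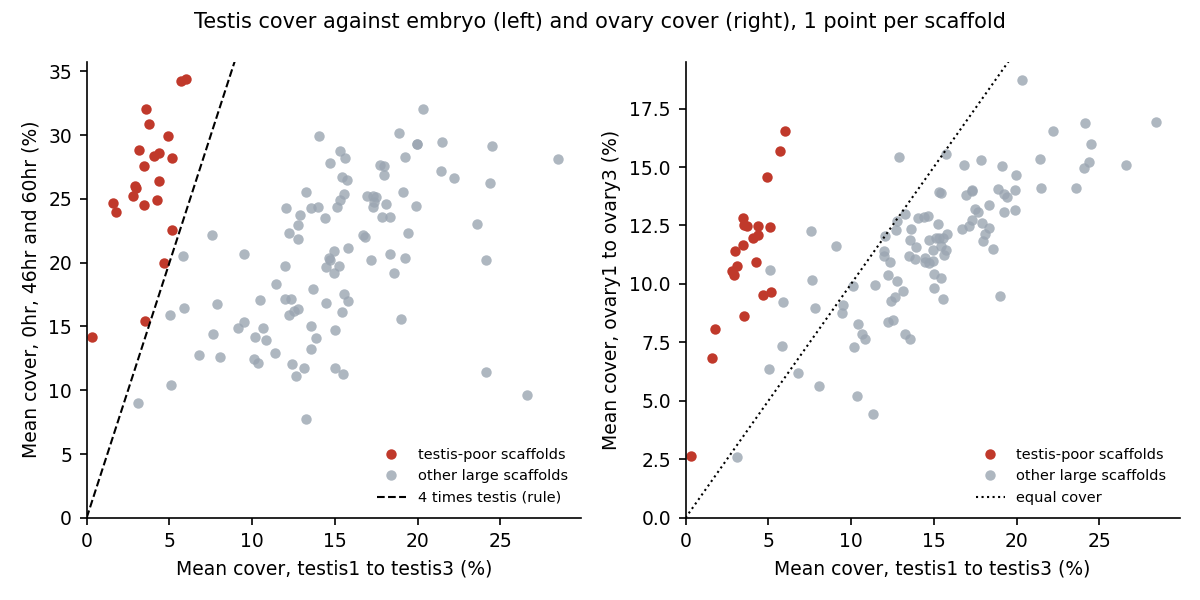
Mean cover of the 125 large scaffolds in testis (horizontal axes, %) against the hours lists (left) and the ovary lists (right), 1 point per scaffold; the dashed line is the rule's 4 times testis and the dotted line equal cover. Red testis-poor scaffolds lie above the dashed line by the choice made, and in the ovary panel all 22 lie above equal cover, against 10 of the 103 others.

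Ovary cover was not used in the choice, but testis cover was, so testis is set beside ovary with no test. Mean testis cover over mean ovary cover was 0.115 to 0.531 on the testis-poor scaffolds (median 0.319) and 0.482 to 2.55 on the other large scaffolds (median 1.32). Of the others, 1 lay at or under the highest value of the testis-poor scaffolds. Every testis list was below every ovary list on 15 of the 22 testis-poor scaffolds and on 0 of the 103 others. Over the 459 scaffolds of at least 20 kb with a mean cover of at least 1%, this held for 4.79%. The exceptions among the testis-poor scaffolds were 0060, 0068, 0072, 0075, 0105, 0116 and 0118, and on each of these ovary2 lay under the highest testis list. Every hours list was above every testis list on all 22, as the rule favours, and on 30.1% of the 459.

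The choice did not rest on a single list. Left out in turn, testis1 gave 22 scaffolds, testis2 24, testis3 19, 0hr 21, 46hr 22 and 60hr 22, and each choice shared at least 19 with the 22. A left-out list took no part in the ratio for that choice, but the other lists of its class still did. The choice without testis1 returned the same 22 scaffolds. The left-out values below are therefore a description and no independent check. On scaffolds chosen without testis1 its cover was 4.65%, against 16.6% on the rest of the large scaffolds. Without testis2 the values were 5.45% against 21.2%, and without testis3 1.08% against 8.49%. Each scaffold chosen without a testis list lay under the rest's median in that list, which was 22 of 22, 24 of 24 and 19 of 19. When each list's cover was rescaled so that all lists had equal covered length, 14 scaffolds were chosen, all among the 22.

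Low testis cover ran along most of each scaffold's length. In windows of 100 kb, the hours lists had at least 4 times the testis cover in 396 of 474 windows of the testis-poor scaffolds (83.5%) and in 214 of 1808 windows of the others (11.8%). The same ratio chose the scaffolds, so the gap between the groups was set by the choice. The windows describe only how low testis cover was spread along them. On single testis-poor scaffolds this share was between 61.5% (0068 and 0072) and 100% (0116), with a median of 85.0%. On scaffold 0038 it held in 20 of 21 windows, and on scaffold 0002 in 62 of 69. No testis peak at all lay in 25.3% of the windows of the testis-poor scaffolds and in 1.71% of those of the others. Median window cover was 2.03% in testis, 9.70% in ovary, 25.7% in the hours lists and 15.6% in the late lists on the testis-poor scaffolds, against 13.2%, 10.7%, 20.3% and 16.0% on the others.

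**Figure D4:**
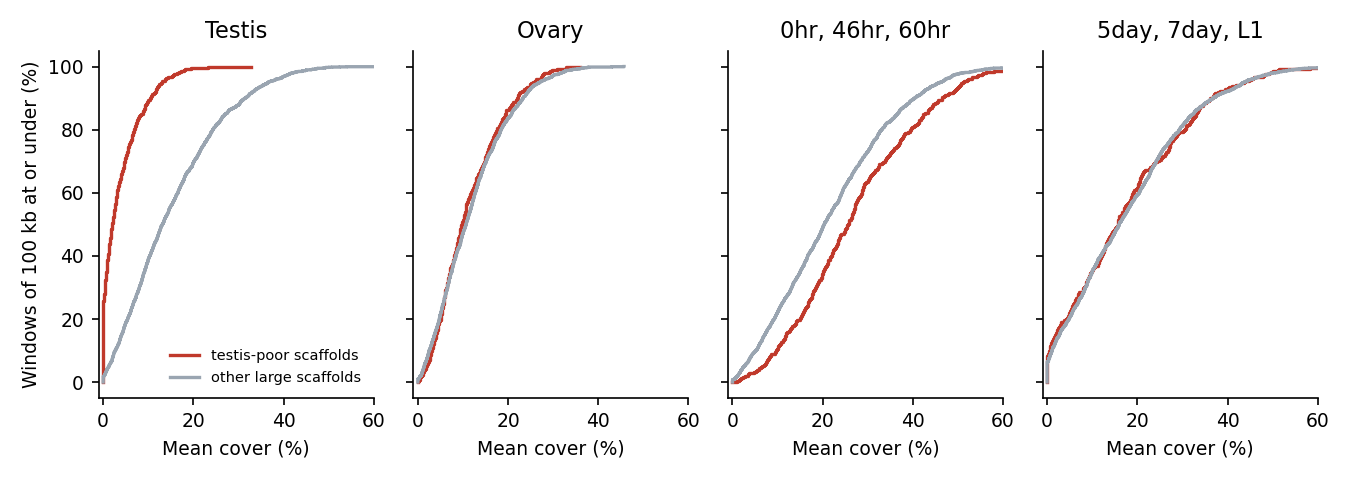
Share of 100 kb windows (vertical axis, %) at or under a given mean cover (horizontal axis, shown up to 60%) in testis, ovary, hours and late lists, for 474 windows of the testis-poor scaffolds (red) and 1808 of the other large scaffolds (grey). The red curve is far to the left in testis, where 25.3% of the windows hold no peak. It lies close to the grey one for the means of the ovary and late lists, and to its right in the hours lists.

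In finer windows of 20 kb, 66.7% of those on the testis-poor scaffolds and 22.5% of those on the others had no testis peak, while 21.5% and 22.4% had no ovary peak. The groups thus differed in how many windows testis left empty, as the choice favours, and hardly in how many ovary left empty. Patches of the same kind were rare on the other large scaffolds: 2 of the 103 held a run of at least 5 consecutive 100 kb windows with a 4-fold ratio. These were scaffold 0040 from 700001 to 1200000, with 1.91% in testis, 11.6% in ovary and 29.4% in the hours lists, and scaffold 0052 from 300001 to 900000, with 2.25%, 8.92% and 25.0%. Both were picked after their values were seen. Some testis-poor scaffolds lacked such a run too: the longest was 3 windows on 0068 and 0118 and 4 on 0072, 0089, 0105 and 0122. Of the others, 0059 and 0111 had the ratio in 56.3% and 57.1% of their windows, with longest runs of 3. Among 327 smaller scaffolds of 20 to 500 kb, 51 met the same ratio with a mean hours cover of at least 5%, and these spanned 5.14 Mb.

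The testis-poor scaffolds were not devoid of testis CENP-A. The 5 windows of 20 kb with the highest testis cover were on scaffolds 0012, 0122, 0002, 0006 and 0077. On scaffold 0012 from 3420001 to 3440000 cover was 78.7%, 100% and 45.5% in the testis lists, 43.0%, 58.4% and 54.8% in the ovary lists and 79.6% to 91.2% in the late lists. This window was covered by 43.0% or more at every stage. On scaffold 0006 from 680001 to 700000 it was 73.4%, 73.6% and 18.98% in testis and 79.1%, 15.2% and 43.2% in ovary, against 6.03%, 6.86% and 1.33% in the hours lists and 0% in all 3 late lists. That window carried CENP-A in the gonads and nearly none in embryos. On scaffold 0122 from 420001 to 440000 the testis lists had 57.7% to 68.0% and the late lists 96.5% to 100%.

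Of all peaks on the testis-poor scaffolds, the one with the most reads in testis was on scaffold 0002. It ran from 6516501 to 6523669 in testis1, with 5012 and 6112 reads in its 2 libraries, from 6516587 to 6521576 in testis2, with 3766 and 8543, and from 6516526 to 6521656 in testis3, with 8121 and 6036. It ranked first by reads on the testis-poor scaffolds in these 3 lists and in ovary1. Its reads per kb were 11.9, 12.1 and 8.35 times the median of these scaffolds' peaks in the testis lists and 8.33, 5.16 and 4.12 times in the ovary lists. It ranked 26 at 0hr and 195 at 46hr, and no peak overlapped it in 60hr or the late lists. This peak was named after its values were seen.

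Where testis did hold a peak on these scaffolds, ovary mostly held one too. Of the peak length on the testis-poor scaffolds, 85.6% in testis1, 75.2% in testis2 and 83.8% in testis3 lay inside a peak of any ovary list. On the other large scaffolds the shares were 69.2%, 49.3% and 67.1%. Low testis cover chose the scaffolds, so this contrast is not free of the choice and is a description. Ovary peaks covered a like part of both groups, 23.2% and 23.6% of the extent. The reverse share was lower on the testis-poor scaffolds: 43.7%, 42.8% and 21.2% of the peak length of ovary1 to ovary3 lay inside a testis peak there, against 85.0%, 78.7% and 61.1% on the others. Testis peaks of any list covered only 7.40% of the extent of the testis-poor scaffolds, against 29.8% of the others. The choice of scaffolds set that gap, so a lower reverse share follows from it and does not show less sharing of sites.

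At sites that testis and ovary shared, read density can be compared without the difference in peak number. Over the 9 pairs of a testis with an ovary list, and peaks that overlap by at least 50% of the length of both, the median testis-to-ovary ratio of reads per kb was 0.695 to 0.844 on the testis-poor scaffolds relative to the others. Each pair rested on 52 to 319 shared peaks on the testis-poor scaffolds. For late against ovary lists the same relative ratio was 0.871 to 0.965, and for hours against ovary lists 0.900 to 1.08. The order was thus testis lowest, then late lists, then hours lists, with the last pair of ranges overlapping. The 9 values of a class share lists, so they are not independent. Testis and hours lists also chose the scaffolds, and a site enters only where both lists have a peak, so these ratios are a description.

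The comparison of late with ovary lists used no value that chose the scaffolds. Mean cover as measured was higher in the late lists on all 22 testis-poor scaffolds, with ratios of 1.05 to 5.07 (median 1.51), and the other large scaffolds had a median of 1.49. The late lists also had more length called as peak, 44.8 to 48.8 Mb, against 21.7 to 43.5 Mb in the ovary lists. With cover rescaled to equal covered length, the late lists were higher on 13 of the 22 and lower on 9. The median difference was 6.08 percentage points on the testis-poor scaffolds, 5.66 on the other large ones and 4.41 over all 459 scaffolds tested. With limma and Benjamini-Hochberg adjustment over the 459, 2 of the 22 passed an adjusted p of 0.05 and rose, where 22.9% of all scaffolds rose. None of the 22 fell (0 at an unadjusted p under 0.05 as well, and 0 with edgeR), against 2.61% of all. With the filter on mean cover over only the 6 lists compared, 2 of the 22 rose and 0 fell, beside 100 and 12 of all scaffolds. Every late list was above every ovary list on 5 of the 22, against 36.8% of all scaffolds tested.

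The scaffolds that rose were 0060 and 0116. On 0060 cover was 19.99%, 19.1% and 15.5% in the late lists, against 10.8%, 2.29% and 11.2% in the ovary lists, a difference of 10.1 ± 2.91 percentage points (SE, limma adjusted p = 0.0487). On 0116 it was 14.6%, 13.5% and 12.0%, against 0%, 0.53% and 7.41%, a difference of 10.8 ± 2.56 (SE, limma adjusted p = 0.0298). Scaffold 0001, for comparison, differed by 7.13 ± 3.05 (SE, limma adjusted p = 0.140). Ovary3 had the highest ovary cover on 21 of the 22 and on 81 of the 103 others. The count of testis-poor scaffolds that rose hung on it: 15 of 22 rose without ovary3, and 0 without ovary1, ovary2, 5day, 7day or L1. Of all 459 scaffolds tested, 185 rose without ovary3, and 29 to 84 with another list left out. Over all scaffolds 105 rose and 12 fell; with cover rescaled to equal covered length 34 rose and 24 fell, none of them testis-poor, and edgeR on reads in peaks gave 22 and 28.

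**Figure D5:**
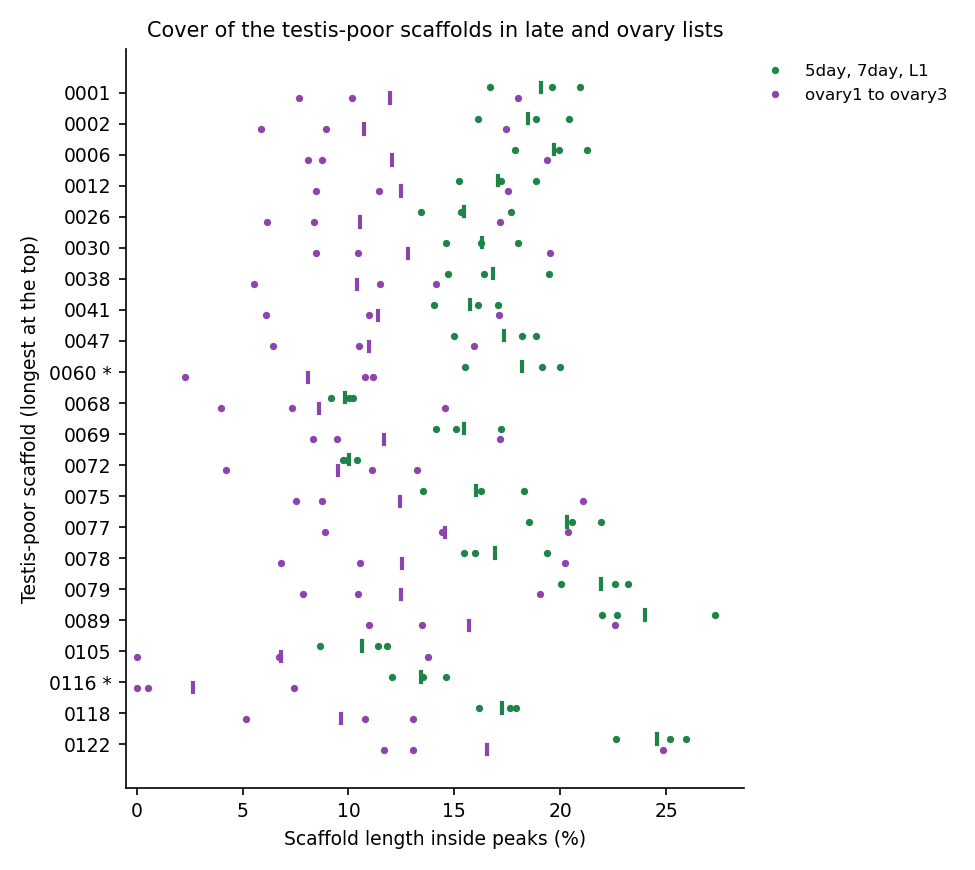
Percent of each testis-poor scaffold inside peaks (horizontal axis) in the 3 late lists (green, upper row of each pair) and the 3 ovary lists (purple), with bars at the means; an asterisk marks the scaffolds called by limma, 0060 and 0116. The late lists lie close together, while ovary3 alone reaches their range on most scaffolds.

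Windows showed where along the scaffolds CENP-A differed between late and ovary lists. Of 1994 windows of 20 kb tested on the testis-poor scaffolds, 348 rose and 65 fell (limma, adjusted p under 0.05 over 11988 windows), which is 17.5% and 3.26%, beside 17.1% and 4.03% of all windows. The shares were close to the background in both directions. Rescaled to equal covered length, 233 rose and 87 fell; on log2 cover 183 rose and 104 fell; edgeR on reads gave 84 and 144. Over all windows these settings gave 1281 and 519, 1144 and 784, and 659 and 979. The turn to more falls than rises with edgeR was thus seen over all windows too. The number that rose was 227 without ovary2, 219 without 5day and 202 without 7day, beside 1329, 1379 and 1325 over all windows. The number that fell was 125 without ovary2, 39 without ovary3, 34 without 5day, 32 without 7day and 32 without L1. Over all windows it was 763, 272, 223, 194 and 219 in the same order.

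The widest gains over ovary were on scaffolds 0038, 0006, 0060, 0118 and 0001. On 0038 from 780001 to 840000 cover was 70.8%, 70.1% and 64.0% in the late lists, against 10.5%, 0% and 2.09% in the ovary lists (highest limma adjusted p of its windows 0.0308). The hours lists had 24.2%, 41.9% and 63.9% there, and the testis lists 0.838%, 5.17% and 0%. On 0006 from 1780001 to 1840000 the late lists had 63.2%, 72.1% and 68.0%, against 2.59%, 0% and 14.1% in ovary, and the testis lists had no peak. The hours lists had 13.9%, 24.3% and 39.6%. Both stretches filled step by step over 0hr, 46hr and 60hr. The gains on 0060 from 1300001 to 1360000, on 0118 from 540001 to 600000 and on 0001 from 5880001 to 5960000 were from ovary means of 3.89%, 11.3% and 9.74%, against late means of 64.7%, 68.2% and 51.4%. The gain on 0118 was the one with more testis cover, 26.9% ± 13.1 (SD, n = 3 lists), than ovary cover, 11.3% ± 7.79 (SD, n = 3 lists). The call on 0001 was lost in 6 of the alternative settings, among them rescaled cover, log2 cover, edgeR and the fits without ovary3, 5day or L1. The call on 0118 was lost in 3, that on 0006 in 2, and those on 0038 and 0060 in 1 each, without ovary3 for 0038.

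The widest losses were shorter. On 0038 from 720001 to 760000, just beside the gain above, cover was 0% in all 3 late lists, against 35.99%, 30.5% and 46.9% in the ovary lists (highest limma adjusted p 0.0222). On 0041 from 1440001 to 1480000 it was 0% in the late lists, against 35.9%, 29.7% and 40.7% in the ovary lists (highest limma adjusted p 0.00806). Testis cover in these stretches was 17.1% ± 10.5 and 5.33% ± 6.10, and hours cover 45.0% ± 12.0 and 47.4% ± 8.65 (SD, n = 3 lists each). The losses on 0012 from 2120001 to 2160000 and on 0047 from 820001 to 860000 were to late means of 16.1% and 4.98%, against ovary means of 49.2% and 37.9%. On 0001 from 7480001 to 7500000 the late lists had no peak, against 59.9% ± 16.2 in ovary (SD, n = 3 lists). The call on 0047 was lost in 5 of the alternative settings, among them the fits without ovary3 or 7day, that on 0001 in 4, the fits without ovary3, 5day, 7day or L1, and that on 0012 in 3, among them the fit without ovary3. The calls on 0038 and 0041 were lost in 1 each.

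Read density per kb of peak, less the median over scaffolds of each list, was also compared between late and ovary lists. Scaffolds 0105 and 0116 had no peak in at least 1 ovary list and could not be tested. Of the 20 testis-poor scaffolds with a peak in all 6 lists, 4 rose and 4 fell (limma, adjusted p under 0.05 over 223 scaffolds), or 20% each way, beside 22.4% and 29.1% of all. The median log2 difference was 0.03 on the testis-poor scaffolds and 0.07 on the other large ones. Density rose on 0060, by 0.52 ± 0.09 on the log2 scale (SE, limma adjusted p = 0.00436), and on 0072, by 0.55 ± 0.06 (SE, limma adjusted p = 0.00153). It fell by 0.19 ± 0.04 on 0006 (SE, limma adjusted p = 0.0105) and by 0.27 ± 0.09 on 0068 (SE, limma adjusted p = 0.0493). The others past the threshold, named after their values were seen, were 0075 and 0078, which rose, and 0069 and 0079, which fell. Without ovary1, ovary2, 7day or L1 in turn, 2 fell. The scaffolds did not move as 1 group in this measure.

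Retained DNA made up nearly all of these scaffolds. Of 24695 peaks on them, 190 (0.769%) were marked eliminated, against 0.582% on the other large scaffolds, and 14 of the 22 carried no such peak. Scaffold 0068 was the exception, with 136 of its 551 peaks (24.7%) marked eliminated, all between 818278 and 1315704. In that span cover was 2.48%, 1.36% and 0.370% in the testis lists, 1.81%, 1.96% and 21.1% in the ovary lists, 19.3%, 12.0% and 5.67% in the hours lists, and 0.224%, 0% and 0% in the late lists. The retained rest of 0068 had a ratio of hours to testis cover of 3.57, under the threshold. Scaffold 0068 therefore met the rule only with its eliminated end included. Scaffold 0060 carried 22 eliminated peaks from 46 to 58277, and 0116 carried 4.

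For the question of sex linkage the tables hold only indirect measures. Low cover in testis, the male gonad, and its absence in the hours lists were fixed by the choice of scaffolds and are no evidence on this question. In lists that took no part in the ratio that chose the scaffolds, their relative cover was 0.785 to 1.09 in ovary and 0.883 to 1.03 in the late lists. At shared sites, the testis-to-ovary ratio of reads per kb was 0.695 to 0.844 on these scaffolds relative to the other large ones. For late lists, whose sexes the labels do not give, the same relative ratio to ovary was 0.871 to 0.965. The testis ratio is not free of the choice, since testis lists chose the scaffolds and a shared site needs a testis peak. Relative cover of the testis-poor scaffolds in testis, 0.131 to 0.280, was lower than these read ratios. The tables assign no scaffold to a chromosome, and the DNA input libraries were not analysed here, so copy number was not measured. Fewer copies in male tissue and less CENP-A per copy cannot be told apart, and sex linkage was not tested by any value given here.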

How the data were processed

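The authors ran CENP-A chromatin immunoprecipitation with sequencing on 12 stages, with a single-end and a paired-end library each, per the labels; of 62 samples the 24 CENP-A libraries were used here. The submitters' processing notes name Bowtie2 and MACS2; their versions and settings are not given in the sources used here. A row of a deposited table holds, per the file headers, a peak's scaffold, start, end, CENP-A coverage in 2 replicate columns and the mark retained or eliminated. The coverage values are whole numbers and were taken here as read counts. The assembly, by its scaffold names, is AgBionano_v1.9. The use of input, the number of mapped reads and the library type of each column are not given in the sources used here, so depth is known within peaks only. The deposited counts were not normalized.

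Cover was summed peak length over extent (Python 3.11.15, pandas 2.3.3). Features were scaffolds from 20 kb upward and 20 kb windows (end windows from 5 kb upward) whose cover averaged 1% or more over the 12 lists. They were compared between late and ovary lists with limma 3.58.1 (trend, robust) in R 4.3.3, two-sided, on 1 value per list. edgeR 4.0.16 on counts per feature, both libraries summed, was an alternative. The design had planned for peak lists that might hold no reads. Read density was tested since they hold coverage values, taken as read counts. The code was tested on simulated data. Nothing says that the libraries or lists came from separate animals. The scaffolds, lists and tests were chosen with earlier results of these data known. Scaffolds named are the 10 longest, the 2 highest and 2 lowest by ratio and the 3 just outside; windows named are up to 5 merged runs each way by change of covered length and the 5 with most testis cover. Scaling, filters, window size, logs, libraries and left-out lists were varied.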

Additional observations from a re-analysis of the deposited data

How the results depend on the processing

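No paired analysis was possible because the tested comparison sets late lists, which carry no replicate number, against ovary lists; testis, which shares numbers with ovary, was used to choose the scaffolds and was not tested. The number of testis-poor scaffolds was 19 to 24 with a list left out, 17 to 25 with other limits of ratio or extent or with the peaks at or above each list's median read density, and 14 with cover rescaled to equal covered length. With those denser peaks alone, relative cover was 0.127 in testis, 1.01 in the hours lists and 0.862 in the late lists, and testis over ovary relative cover was 0.145 (0.210 to 0.290 with a list left out). Left-out lists gave relative covers of 0.194 to 0.268 in testis, 0.842 to 0.994 in ovary, 1.16 to 1.30 in the hours lists and 0.955 to 1.03 in the late lists.

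Of testis-poor scaffolds, 2 rose between ovary and late lists; this was 0 with scaled lists, log2 cover or edgeR, 9 when tested among large scaffolds alone, 1 with no filter, and 0 to 15 with a list left out. Over all scaffolds, 105 rose: 34 with scaled lists, 44 on log2 cover, 22 with edgeR, 54 among large scaffolds and 29 to 185 with a list left out. Those that fell numbered 12: 24 with scaled lists, 28 with edgeR, 2 among large scaffolds and 1 to 21 with a list left out. Windows of testis-poor scaffolds that rose numbered 348: 183 on log2 cover, 84 with edgeR, 190 at 50 kb and 202 to 286 with a list left out; those that fell numbered 65: 104 on log2 cover, 35 with all 12 lists, 144 with edgeR, 29 at 50 kb, 40 with no filter and 32 to 125 with a list left out. Over all windows that rose, the values were 1281 scaled, 1144 on log2 cover, 659 with edgeR, 1141 at 50 kb and 1240 to 1748 with a list left out; over all that fell, 784 on log2 cover, 264 with all 12 lists, 979 with edgeR, 235 at 50 kb, 297 with no filter and 194 to 763 with a list left out. Fewer features are tested among large scaffolds and at 50 kb; for the other settings the cause was not tested.

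In read density, large scaffolds alone gave 30 that rose and 25 that fell, the second library alone gave 2 testis-poor scaffolds that fell, and left-out lists gave 39 to 47 that rose, 40 to 55 that fell, and 4 to 5 and 2 to 4 among the testis-poor. For the named scaffolds and stretches 353 values kept their direction and side of the threshold, 51 lost the call, 18 gained it and 20 turned in direction; no call was among those that turned. In cover, the difference was -1.19 on 0012, -2.09 on 0030, -0.52 on 0041, -1.92 on 0068 and -3.31 on 0072 with scaled lists in percentage points; with a list left out it ran from -1.13 (ovary2) to 4.14 (ovary3) on 0068 and from -2.12 (ovary2) to 2.37 (ovary3) on 0072. With edgeR the log2 fold change was -0.023 on 0001, -0.040 on 0006, -0.17 on 0012, -0.16 on 0030 and -0.57 on 0068. In log2 read density, large scaffolds alone gave -0.058 on 0002, -0.013 on 0030 and -0.052 on 0047, the second library alone -0.0030 on 0002 and -0.025 on 0047, and left-out lists from -0.035 (ovary2) to 0.051 (ovary1) on 0002, with -0.0075 without 7day, and from -0.00079 (7day) to 0.044 (5day) on 0047. Scaffold 0060 lost its cover call in 10 settings and 0116 in 8, and 0068 its density call in 6; the named stretches lost theirs in 1 to 6. A filter over the 6 lists compared, and the left-out lists and denser peaks for testis over ovary cover, were chosen after seeing the data. A single peak set per stage, at unknown mapped depth, limits every value: cover moves with how much of a list was called as peak.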
